A study of Mus musculus with 16 samples.

Results

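The receptor subunits for glutamate, GABA and glycine were examined in bulk RNA sequencing of fetal mouse brain. Members were taken by gene symbol: numbered Gria, Grin, Grik, Grid and Grm genes for glutamate receptors, Gabr genes for the GABA-A receptor, Gabbr1 and Gabbr2 for the GABA-B receptor, and numbered Glra genes with Glrb for the glycine receptor. The symbol rule found 43 of the 16228 genes listed, of which 24 code for glutamate, 16 for GABA and 3 for glycine receptor subunits. The libraries came from wild-type (WT) mice at embryonic day 18.5, from cortex or hippocampus. Cortex gave 5 libraries of the enriched environment (EE) group and 5 of the standard habitation (SH) group, and hippocampus gave 3 of each. The series title places the exposure before birth. An enriched environment is, as background, housing with added space, objects or company. The labels give no strain, and they do not say which fetuses or litters a library came from or whether fetuses were pooled, so each p-value below measures only the spread between libraries, which may be technical.

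Fast excitation in the brain runs through glutamate-gated channels, the AMPA, NMDA and kainate receptors, while the metabotropic glutamate receptors and the GABA-B receptor signal through G proteins. GABA-A and glycine receptors are pentameric chloride channels, and the alpha, beta and gamma subunits in a GABA-A receptor set its response to GABA and to drugs such as benzodiazepines. In the fetal forebrain the subunit mix is known to change with age, with Grin2b ahead of Grin2a and with Gabra2, Gabra3 and Gabra5 prominent before birth. Neuronal chloride is also high at this stage, so that GABA and glycine can depolarize immature neurons.

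Levels are given in FPKM, a level scaled by transcript length and sequencing depth, which allows genes to be compared with each other. The whole reads behind the FPKM values were recovered from the steps between them and ran from 10629249 to 21362189 per library; the median gene rested on 367 to 642 of them. The FPKM of a library summed to between 338885 and 395736 in 15 libraries and to 510540 in cortex SH replicate 3, which stands apart from the rest and is described below. The hippocampal libraries held hippocampal transcripts: 4 of 5 hippocampal marker genes were higher there than in cortex, and the summed level of the markers listed in every library was 30.3 to 66.3 FPKM in hippocampus and 14.4 to 24.8 FPKM in cortex. Of 5 cortical layer markers, 3 were lower in hippocampus and 1 was higher, and their summed level overlapped between the tissues. All 5 neuronal markers were listed in every library.

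Of the 43 subunits, 39 were listed in all 16 libraries. Grin2a and Grin2c were listed in 12 libraries and not in cortex replicates 4 and 5, and Gabre and Glra3 were listed in 6 libraries, those of cortex replicates 1 to 3. A subunit that a library does not list was treated as missing there and never as 0. Gabra6, Gabrp, Gabrr1, Gabrr2, Gabrr3, Glra1, Glra4, Grin3b and Grm6 match the rule in the gene annotation but were not listed in the files used here. The highest level of any member was that of Gabbr1, the GABA-B subunit that binds GABA, with 99.6 ± 19.8 FPKM (SD, n = 16). Its partner Gabbr2, which couples the receptor to G proteins, stood at 17.9 ± 6.26 FPKM (SD, n = 16). The plot of levels by library shows this order within each receptor class.

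**Figure D1:**
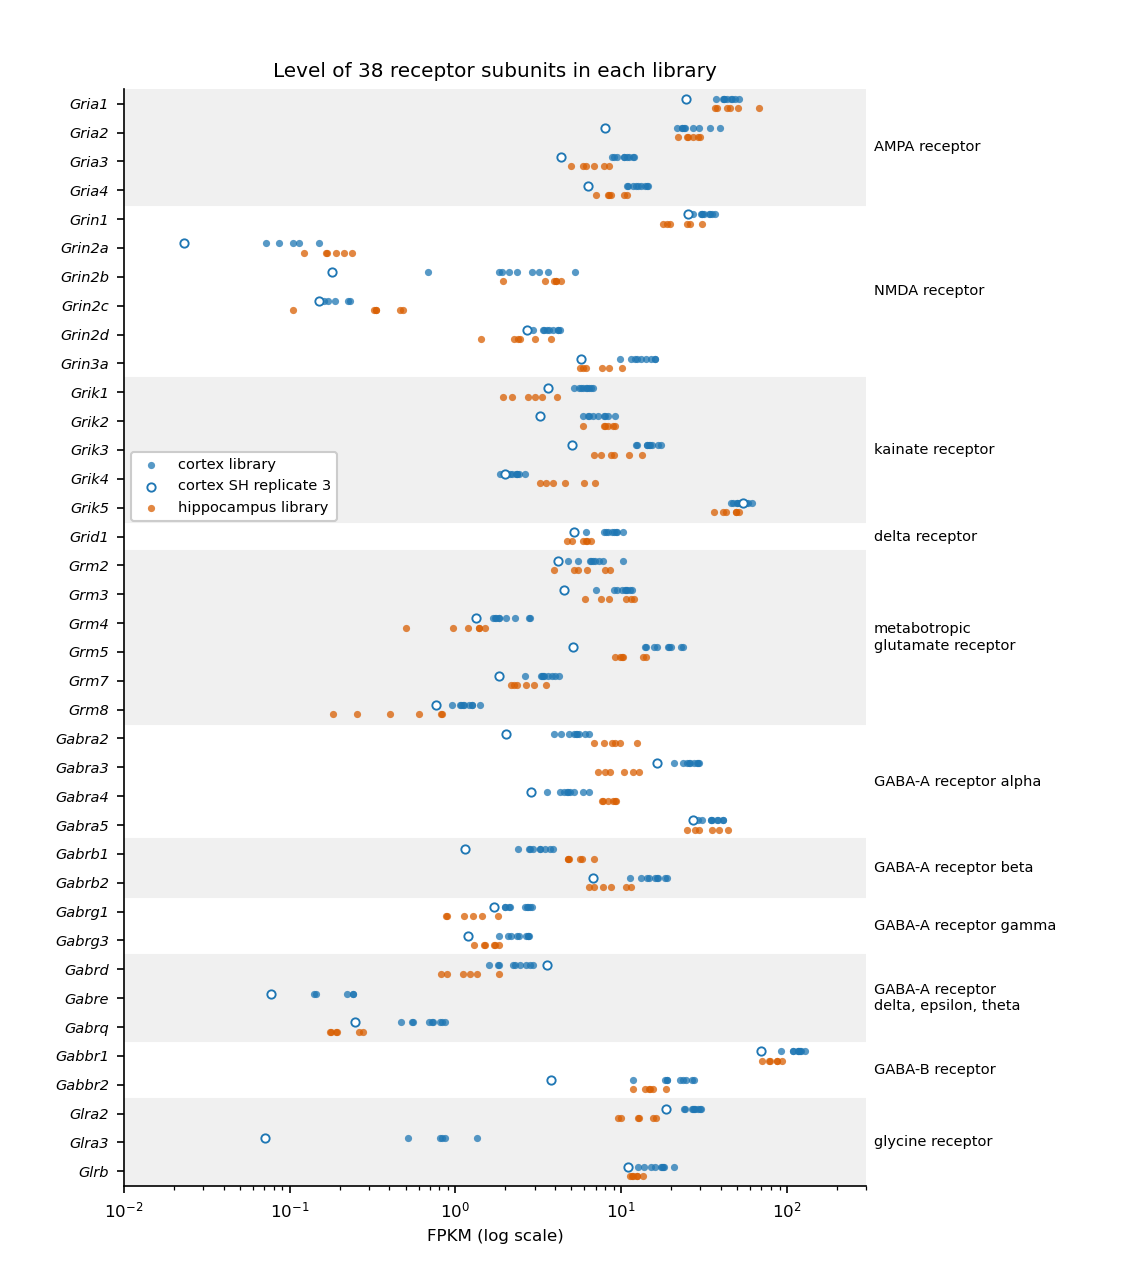
FPKM of 38 of the subunits on a log axis, with 1 point per library, cortex in blue and hippocampus in orange, and cortex SH replicate 3 as an open circle. Gabbr1 lies highest, between 69.2 and 128 FPKM, and the open circle is the lowest cortex value for 35 of those drawn.

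Among the AMPA receptor genes, which carry most fast excitatory current, Gria1 was highest with 44.0 ± 9.06 FPKM and Gria3 lowest with 8.63 ± 2.43 FPKM (SD, n = 16). Among the NMDA receptor genes the obligatory subunit Grin1 led with 28.3 ± 5.86 FPKM (SD, n = 16). Grin3a, a subunit that lowers calcium entry, followed with 10.6 ± 3.70 FPKM (SD, n = 16). The glutamate-binding Grin2 subunits were low in these units. Grin2b ranged from 0.180 to 5.27 FPKM, Grin2d from 1.43 to 4.29 FPKM, Grin2c from 0.104 to 0.482 FPKM and Grin2a from 0.0230 to 0.237 FPKM. The longest annotated transcript of Grin2b has 24060 nt, but the length behind its FPKM is not given. Grin2a rested on 6 to 55 recovered reads per library, so its values carry a large counting error.

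Kainate receptors are glutamate channels with a modulatory role before and after the synapse. Their subunit Grik5, which needs a partner from Grik1 to Grik3 to reach the surface, had 49.8 ± 6.47 FPKM, against 3.15 ± 1.503 FPKM for Grik4 (SD, n = 16), its close relative. Grid1, a receptor-like subunit that binds cerebellins, had 7.30 ± 1.77 FPKM (SD, n = 16). Of the metabotropic receptors, Grm5, coupled to calcium release from stores, was highest with 14.8 ± 5.23 FPKM and Grm8, an inhibitory presynaptic receptor, was lowest with 0.896 ± 0.372 FPKM (SD, n = 16).

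The GABA-A alpha subunits, which form the GABA site together with beta, were led by Gabra5 with 34.4 ± 5.72 FPKM (SD, n = 16). Gabrb1 was the lowest of the beta subunits with 3.90 ± 1.47 FPKM, and Gabrg1 the lowest of the gamma subunits with 1.95 ± 0.689 FPKM (SD, n = 16). Gabrd, a subunit of receptors outside the synapse, had 1.97 ± 0.799 FPKM and Gabrq had 0.485 ± 0.265 FPKM (SD, n = 16). Gabre lay between 0.0769 and 0.242 FPKM, on 6 to 16 reads. Of the glycine receptor genes, the fetal alpha subunit Glra2 had 21.3 ± 7.54 FPKM and the beta subunit Glrb, which binds gephyrin, had 14.6 ± 2.99 FPKM (SD, n = 16). Glra3, another alpha subunit, ranged from 0.0712 to 1.36 FPKM, and its lowest value, in cortex SH replicate 3, came from 3 reads.

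The remaining subunits lay between these within their families. Mean levels over the 16 libraries were 25.8 FPKM for Gria2 and 10.9 FPKM for Gria4, and 12.1, 7.33 and 4.71 FPKM for Grik3, Grik2 and Grik1. The group II metabotropic receptors Grm3 and Grm2 averaged 9.43 and 6.49 FPKM, and Grm7 and Grm4 averaged 3.09 and 1.69 FPKM. Among the GABA-A genes, Gabra3 averaged 19.4 FPKM, Gabrb2 12.4 FPKM, Gabra4 6.14 FPKM and Gabrg3 2.03 FPKM. Gabra2 ranged from 2.005 to 12.4 FPKM over the libraries. Neighbours with overlapping ranges, such as Gabra2 and Gabra4, have no clear order.

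Cortex SH replicate 3 held less of nearly every subunit than the other cortex libraries. All 43 subunits were listed there, 41 were below both SH replicate 1 and SH replicate 2, and 39 were the lowest of the cortex libraries that listed them. In all genes with a mean of at least 1 FPKM in cortex replicates 1 to 3, 52.8% were below both of those libraries. The summed level of the 39 subunits listed everywhere was 383.8 FPKM in this library, 610.0 and 615.3 FPKM in SH replicates 1 and 2, and 560.2 to 691.5 FPKM in the other 7 cortex libraries. Gabbr2 stood at 3.75 FPKM against 18.8 and 19.0 FPKM in SH replicates 1 and 2. Gria2, the AMPA subunit that blocks calcium entry once edited, stood at 7.94 FPKM against 23.9 and 23.3 FPKM, and Grm5 at 5.15 FPKM against 16.3 and 15.7 FPKM. Gabrd, at 3.57 FPKM against 2.23 and 2.83 FPKM, and Grik5, at 54.5 FPKM against 45.8 and 53.2 FPKM, were the 2 exceptions.

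The shortfall in that library grew with transcript length. Over the 38 subunits with a mean of at least 1 FPKM, the median log2(FPKM + 1) difference from the mean of SH replicates 1 and 2 was -0.64, against -0.11 over 12870 genes. Receptor subunits have long transcripts, with a median longest transcript of 5206 nt against 3363 nt over all genes. Over 2728 other genes within the middle range of subunit lengths, 4072.8 to 5880.2 nt, the median difference was -0.41. Across genes, which share a library and are not independent replicates, Spearman's rho between the difference and length was -0.75 for all genes and -0.47 for the subunits. The 5 erythroid marker genes summed to 4072.3 FPKM in this library and to 828.4 to 1797.9 FPKM in the others. Of the cortex libraries it also had the highest sums of neuronal, interneuron, striatal, thalamic, radial glia, endothelial and microglial markers. Its sums of cortical layer, hippocampal, Cajal-Retzius and pericyte markers were the lowest. Among the alternatives at the end is a fit with each library's trend on length and GC content removed. Beyond that, the part of length, of blood or of other cell types in the results below was not tested. The main counts and fitted differences between the tissues are given with and without this library.

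**Figure D2:**
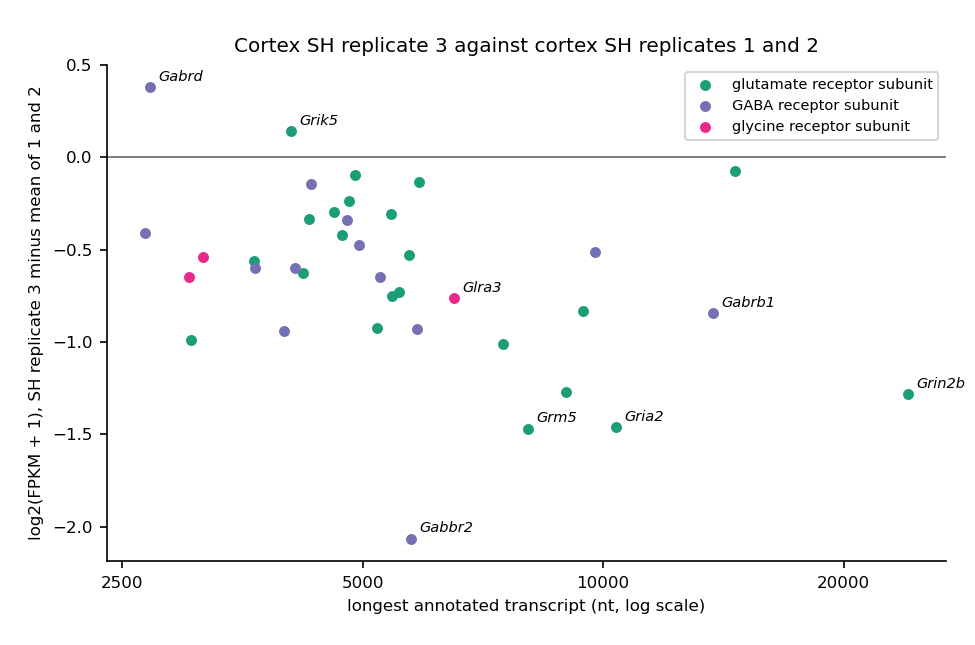
Difference between cortex SH replicate 3 and the mean of SH replicates 1 and 2, in log2(FPKM + 1), against the longest annotated transcript on a log axis, with 1 point for each of 38 subunits. Points for Gabrd and Grik5 lie above 0, and those for Gabbr2, Grm5, Gria2 and Grin2b lie lowest.

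The 6 hippocampal libraries were set against the 6 cortex libraries of replicates 1 to 3, with housing as a covariate. The question was which subunits mark each tissue before birth. Hippocampus had more Gabra2, Gabra4, Gabrb1 and Grik4, and less of 16 subunits, led by Gabra3, Glra2, Grik1, Gabrd and Grin3a. Of 37 subunits with a mean of at least 1 FPKM, 20 passed an adjusted p of 0.05 (limma, Benjamini-Hochberg over all genes), 4 higher and 16 lower in hippocampus. Over all 13138 genes tested, 35.4% passed, 24.6% higher and 10.8% lower. The median log2 difference, hippocampus minus cortex, was -0.38 over the subunits and 0.09 over all genes, with 8 subunits positive and 29 negative. Less RNA per cell and fewer cells of a type cannot be told apart in such bulk samples.

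Without cortex SH replicate 3, 29 subunits passed, 4 higher and 25 lower, and the 20 named first were among them; 43.7% of all genes then passed, 28.5% higher and 15.2% lower. Gabbr2, Gabrg3, Gria3, Gria4, Grik3, Grin2d, Grm5 and Grm7 were among those added, all lower in hippocampus, and the median over the subunits became -0.52. Median-of-ratios scaling moved the median of all genes from 0.09 to -0.03 and turned their split from 3226 higher and 1423 lower to 2154 higher and 2228 lower, 16.4% and 17% of genes (33.4% together). Under it the subunits split into 4 higher and 21 lower, and each of the 20 kept its direction. At the same summed FPKM per library, 12 subunits passed, 4 higher and 8 lower, against 31.9% of genes (24.8% higher, 7.05% lower); Gabbr1, Gabrb2, Glrb, Grid1, Grin1 and Grin3a were among the 8 that no longer passed.

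**Figure D3:**
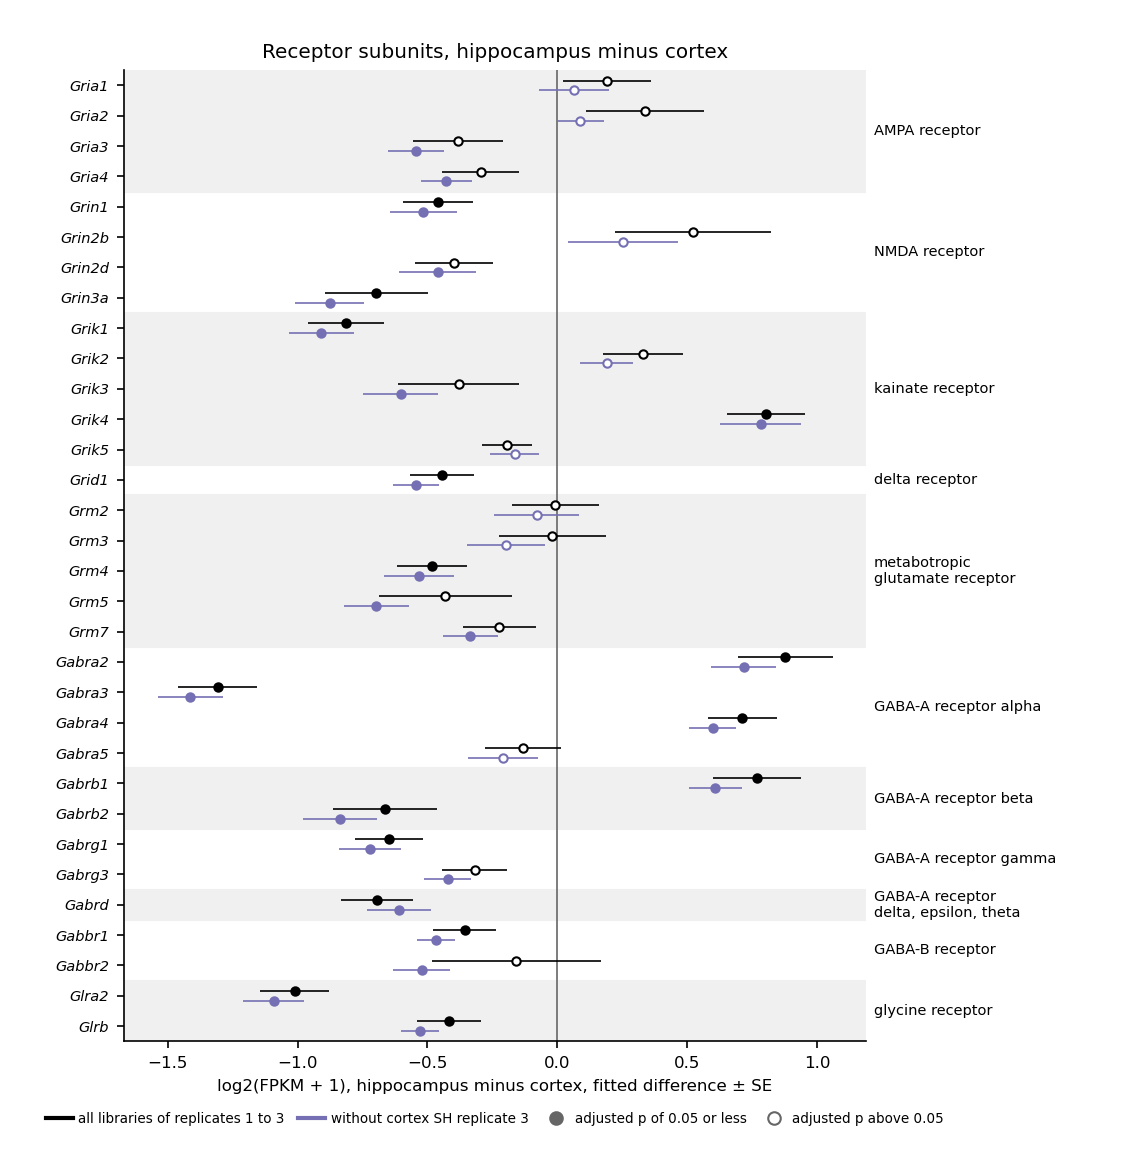
Fitted difference in log2(FPKM + 1), hippocampus minus cortex, with its SE, for 32 of the subunits tested, in black with all libraries of replicates 1 to 3 and in violet without cortex SH replicate 3. Filled points passed an adjusted p of 0.05, and Gabra2, Gabra4, Gabrb1 and Grik4 are the filled points to the right of 0.

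Gabra3, an alpha subunit prominent before birth, had the smallest adjusted p of the subunits. Its lowest, median and highest levels were 7.22, 9.46 and 12.8 FPKM in hippocampus and 16.4, 27.2 and 29.4 FPKM in cortex. The groups did not overlap. The log2 difference was -1.31 ± 0.15 (SE; limma, adjusted p = 5.10e-05), and Gabra3 passed in 26 of 26 alternative analyses.

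Gabra2 and Gabra4 went the other way. Gabra2 had 6.89, 8.98 and 12.4 FPKM (lowest, median and highest) in hippocampus and 2.005, 5.01 and 6.01 FPKM in cortex, a log2 difference of 0.88 ± 0.18 (SE; limma, adjusted p = 0.00273). Gabra4, found in receptors outside the synapse, had 7.69, 8.60 and 9.31 FPKM against 2.87, 4.85 and 6.34 FPKM, a difference of 0.71 ± 0.13 (SE; limma, adjusted p = 0.00142). Every hippocampal library exceeded every cortex library in both genes. For Gabra5, the highest alpha subunit in both tissues, the difference was -0.13 ± 0.15 (SE; limma, adjusted p = 0.514), among the 3 nearest to 0.

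Of the beta subunits, Gabrb1 was higher in hippocampus, with 4.79, 5.25 and 6.85 FPKM against 1.15, 3.08 and 3.74 FPKM. Its log2 difference was 0.77 ± 0.17 (SE; limma, adjusted p = 0.00413), and no cortex library reached the hippocampal range. Gabrb2 was lower in hippocampus by -0.66 ± 0.20 (SE; limma, adjusted p = 0.0211). Of the gamma subunits, Gabrg1 was lower by -0.65 ± 0.13 (SE; limma, adjusted p = 0.00231), from 2.502 ± 0.480 to 1.24 ± 0.356 FPKM (SD, n = 6 each). Gabrd had 0.817, 1.17 and 1.83 FPKM in hippocampus and 1.83, 2.48 and 3.57 FPKM in cortex. The groups met without overlapping, and the difference was -0.70 ± 0.14 (SE; limma, adjusted p = 0.00218).

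Both glycine receptor subunits tested were lower in hippocampus. Glra2 had 9.52, 12.7 and 16.3 FPKM there and 18.5, 27.7 and 29.9 FPKM in cortex, with no overlap. Its log2 difference of -1.01 ± 0.13 (SE; limma, adjusted p = 0.000137) was second in size to that of Gabra3. Glrb had 12.2 ± 0.827 FPKM in hippocampus and 16.9 ± 3.24 FPKM in cortex (SD, n = 6 each), a difference of -0.42 ± 0.12 (SE; limma, adjusted p = 0.0186). Gabbr1 was lower by -0.36 ± 0.12 (SE; limma, adjusted p = 0.0378), with 82.4 ± 8.30 against 107 ± 19.2 FPKM (SD, n = 6 each).

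Kainate subunits split between the tissues. Grik4, known for its high level in hippocampal pyramidal neurons of the CA3 field, had 3.22, 4.21 and 6.93 FPKM in hippocampus and 1.99, 2.16 and 2.36 FPKM in cortex. The groups did not overlap, and the log2 difference was 0.80 ± 0.15 (SE; limma, adjusted p = 0.00140). Grik1 went the other way, with 1.94, 2.88 and 4.10 FPKM against 3.601, 6.13 and 6.76 FPKM and a difference of -0.81 ± 0.15 (SE; limma, adjusted p = 0.00109). Cortex SH replicate 3 made the only overlap in Grik1. Grid1 was lower in hippocampus by -0.44 ± 0.12 (SE; limma, adjusted p = 0.0146).

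Of the NMDA receptor genes, Grin3a was lower in hippocampus by -0.70 ± 0.20 (SE; limma, adjusted p = 0.0159) and Grin1 by -0.46 ± 0.13 (SE; limma, adjusted p = 0.0176), from 31.6 ± 3.66 to 23.0 ± 5.07 FPKM (SD, n = 6 each). Up to 13.5% of the exon bases of Grin1 are shared with the annotated transcript Grin1os, and counting by strand is not given in the sources used here. Of the metabotropic receptors, Grm4 was lower by -0.48 ± 0.13 (SE; limma, adjusted p = 0.0149). Grm2, at 6.23 ± 1.76 FPKM in hippocampus and 6.21 ± 1.42 FPKM in cortex (SD, n = 6 each), and Grm3, at 9.32 ± 2.36 and 9.57 ± 2.57 FPKM, had differences of -0.01 and -0.02. None of the 4 AMPA receptor genes passed with all libraries; Gria3 and Gria4 were lower without cortex SH replicate 3, by -0.54 ± 0.11 and -0.43 ± 0.10 (SE; limma, adjusted p = 0.00187 and 0.00435).

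By range, fewer subunits lay apart than passed the test. Of 41 subunits listed in all 12 libraries, 4 lay wholly above cortex in hippocampus (Gabra2, Gabra4, Gabrb1 and Grik4) and 3 wholly below it (Gabra3, Gabrd and Glra2); over all genes tested the shares were 14.9% and 5.5%. Without cortex SH replicate 3, 4 lay above and 21 below, against 17.8% and 9.82% of all genes. The 41 subunits were taken without a level filter, while the shares of all genes cover those with a mean of at least 1 FPKM. Gabrq and Grm8, among the 21, were under that filter. Leaving out any 1 of the 12 libraries kept the call of 17 of the 20 subunits. Gabbr1 kept it in 2 of the 12 such analyses, with adjusted p-values up to 0.0897 (limma), and Gabrb2 lost it without hippocampus EE replicate 2 (adjusted p = 0.0529). Among SH libraries alone 2 subunits passed, Gabra3 and Gabrd, both lower in hippocampus, where 3.93% of genes passed, 2.27% higher and 1.66% lower. Among EE libraries alone 28 passed, 4 higher and 24 lower, against 36.7% of genes (24.1% higher, 12.5% lower), with 19 of the 20 among them and Gabrd not. Both fits set 3 libraries against 3. The SH fit holds cortex SH replicate 3 and was not repeated without it. The counts of 2 and 28 therefore do not compare the housing groups.

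The fitted differences of the 20 subunits named first all passed without cortex SH replicate 3 (limma, adjusted p up to 0.00762). Those of Gabra2, Gabra4, Gabrb1 and Grik4 were 0.72, 0.60, 0.61 and 0.78. Gabra3, Glra2 and Grik1 had -1.41, -1.09 and -0.91, each farther from 0 than with all libraries. Gabrd had -0.61, Gabrg1 -0.72, Gabrb2 -0.84, Glrb -0.53 and Gabbr1 -0.47. Grin3a, Grin1, Grid1 and Grm4 had -0.88, -0.52, -0.54 and -0.53. The difference of Gabra5 was -0.21 ± 0.14 (SE; limma, adjusted p = 0.230) and did not pass, and those of Grm2 and Grm3 were -0.08 and -0.20.

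Some lists of cell type markers differed between the tissues and others did not. Of all genes, 24.6% were higher in hippocampus and 10.8% lower, or 28.5% and 15.2% without cortex SH replicate 3. Of 4 oligodendrocyte lineage, 4 endothelial and 5 microglial markers, 0 passed. Of 4 astrocyte markers 1 was higher and 2 lower, 1 of 4 pericyte markers was higher, and 1 of 5 meningeal markers was lower. Interneuron markers, 6 of 6 lower in hippocampus, summed to 120.6 to 220.3 FPKM there and to 428.8 to 791.1 FPKM in cortex replicates 1 to 3. Striatal markers, 6 of 6 lower, summed to 8.86 to 37.2 FPKM against 84.5 to 137.4 FPKM, and 3 of 5 neuronal markers were lower, or 4 of 5 without cortex SH replicate 3. Cajal-Retzius cell markers were higher for 4 of 4 genes tested and thalamic markers for 2 of 3. Without cortex SH replicate 3 the thalamic markers split into 2 higher and 1 lower. Radial glia markers were higher for 5 of 6 genes, at 1175.8 to 1854.9 FPKM against 1038.3 to 1752.1 FPKM. In these ranges the highest cortex values of interneuron, striatal and radial glia markers were those of cortex SH replicate 3. Choroid plexus markers summed to 5030.9, 10381 and 16787 FPKM in hippocampus EE replicates 1 and 2 and SH replicate 1, and to 35.6 to 146.3 FPKM in the other hippocampal libraries. None of the markers listed was at 0. Without those 3 hippocampal libraries, 9 subunits passed against 16.5% of all genes (10.5% higher, 5.99% lower): Gabra2, Gabra4, Gabrb1 and Grik4 higher, and Gabra3, Glra2, Grik1, Gabrd and Gabrg1 lower. Neuronal markers summed to 1553.3 to 2474.9 FPKM in hippocampus and to 2620.6 to 3282 FPKM in cortex replicates 1 to 3, highest in SH replicate 3. Their median log2 difference was -0.39, against -0.38 over the subunits, or -0.42 and -0.52 without cortex SH replicate 3. The part of neurons, interneurons, striatal cells, thalamic tissue, Cajal-Retzius cells and radial glia in the subunit differences was not tested.

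A share of the summed FPKM of its own family does not change when a library scales all members alike, so the mix of subunits was compared as well. In the alpha family, Gabra3 made up 15.3% ± 2.43 in hippocampus and 33.3% ± 1.66 in cortex (SD, n = 6 each; exact permutation test, two-sided, p = 0.002165, adjusted p = 0.0061 over 31 shares). Gabra2 made up 14.4% ± 1.41 against 5.92% ± 1.20, and Gabra4 13.6% ± 1.63 against 6.34% ± 0.784 (SD, n = 6 each; both exact permutation p = 0.002165). Gabra5, the largest part of the family in both tissues, made up 51.9% ± 2.96 against 47.4% ± 2.97 (SD, n = 6 each; exact permutation p = 0.0303, adjusted p = 0.0553), a difference that fails the correction with all libraries. Without cortex SH replicate 3 the cortex share was 46.5% ± 2.25 (SD, n = 5; exact permutation p = 0.0130, adjusted p = 0.0252), and the difference passed. The hippocampal alpha mix held Gabra2, Gabra3 and Gabra4 at like shares, where cortex held mostly Gabra5 and Gabra3.

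Gabrb1 made up 11.9% ± 0.784 of the beta family in hippocampus and 4.54% ± 0.680 in cortex, and Gabrb2 18.8% ± 2.79 and 23.2% ± 2.37 (SD, n = 6 each; exact permutation p = 0.002165 and 0.02165). Grik4 made up 6.64% ± 1.41 of the kainate family in hippocampus and 2.77% ± 0.179 in cortex, Grik2 11.5% ± 0.945 and 7.98% ± 1.84, and Grik1 4.08% ± 0.603 and 7.37% ± 1.18 (SD, n = 6 each; exact permutation p = 0.002165 for each). Among AMPA subunits, Gria3 fell from 10.97% ± 0.824 in cortex to 7.52% ± 0.825 in hippocampus and Gria4 from 13.8% ± 0.573 to 10.1% ± 0.739 (SD, n = 6 each; exact permutation p = 0.002165 for both). The smallest p that 6 against 6 libraries allow is 0.002165. The shares of a family add up to the whole, so calls within a family are not independent of each other. Over the 31 shares compared, 16 kept an adjusted p (Benjamini-Hochberg) at or under 0.05, 7 higher and 9 lower in hippocampus, and 17 did so without cortex SH replicate 3. Without that library the cortex shares were 33.7% for Gabra3, 6.34% for Gabra2 and 6.51% for Gabra4. They were 4.80% for Gabrb1, 24.1% for Gabrb2, 2.75% for Grik4, 8.63% for Grik2, 7.79% for Grik1, 11.2% for Gria3 and 13.6% for Gria4. Each of these 10 differences passed again (exact permutation test, adjusted p up to 0.0192), and the smallest p that 6 against 5 libraries allow is 0.004329.

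**Figure D4:**
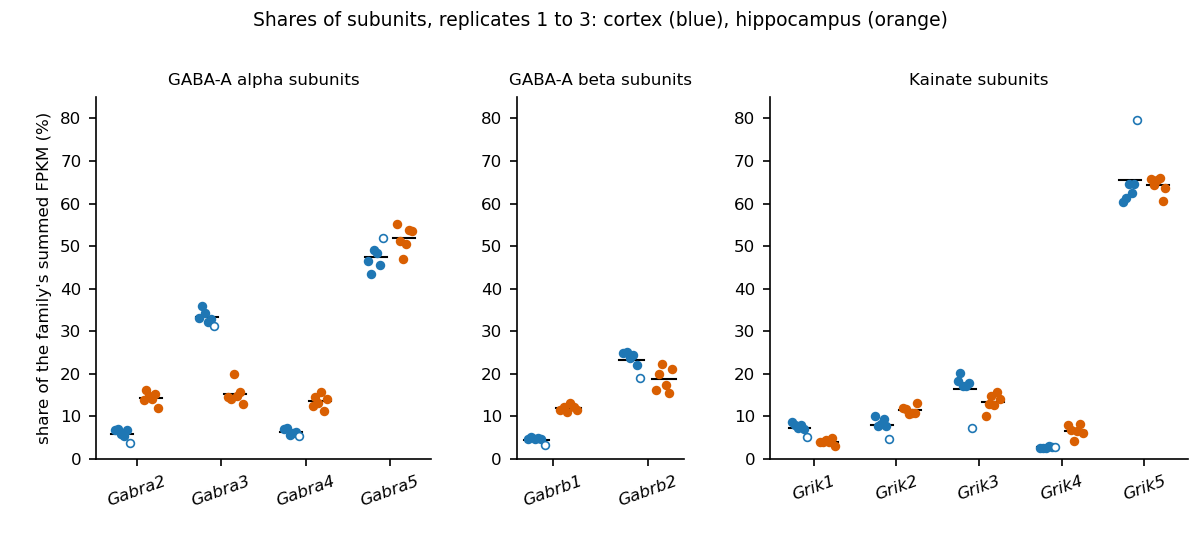
Share of GABA-A alpha, GABA-A beta and kainate subunits in the summed FPKM of its family, in percent, with 1 point per library of replicates 1 to 3, cortex in blue, hippocampus in orange, cortex SH replicate 3 open, and the group mean as a line. Gabra2, Gabra4, Gabrb1, Grik2 and Grik4 are higher in every hippocampal library than in any cortex library, and Gabra3 and Grik1 are lower.

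The GABA-A genes lie in clusters, a trait the choice by name did not use. On chromosome 5 (mm10, 70751047 to 72149037) Gabrg1, Gabra2 and Gabra4 are read on the minus strand and Gabrb1 on the plus strand; 3 were higher in hippocampus and Gabrg1 was lower. The differences of Gabra5 and Gabrg3, on chromosome 7, did not pass. On chromosome X (72255999 to 72842602) Gabra3 was lower, and Gabrq and Gabre were under the level filter. Exons of Gabra4 and Gabrb1 overlap by 46 bases at their starts, so reads there cannot be told apart without strand.

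Promoter sequences of the chromosome 5 cluster are shown because neighbours there differed between the tissues in opposite directions. The stretches come from RefSeq (GRCm38.p6), which held a promoter for 28 of the 43 subunits, and they lie directly before the annotated start, except that 55 bases next to the start of Gabra4 are left out because they lie in an exon of Gabrb1. The promoter window of Gabrb1 lies mostly within the first exon of Gabra4 and is not printed. Capitals mark the GC box, GGGCGG, searched on both strands (CCGCCC on the other).
Gabrg1, chr5:70842618-70842867, minus strand: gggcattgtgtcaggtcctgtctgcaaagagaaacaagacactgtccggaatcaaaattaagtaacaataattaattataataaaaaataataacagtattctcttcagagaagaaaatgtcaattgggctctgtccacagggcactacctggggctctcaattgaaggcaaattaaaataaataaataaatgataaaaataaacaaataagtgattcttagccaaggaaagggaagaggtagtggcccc
Gabra2, chr5:71095850-71096099, minus strand: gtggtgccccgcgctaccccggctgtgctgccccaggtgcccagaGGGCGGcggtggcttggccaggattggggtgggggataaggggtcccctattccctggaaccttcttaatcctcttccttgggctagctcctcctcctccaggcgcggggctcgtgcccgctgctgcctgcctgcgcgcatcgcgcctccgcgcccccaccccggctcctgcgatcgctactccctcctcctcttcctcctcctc
Gabra4, chr5:71658364-71658558, minus strand: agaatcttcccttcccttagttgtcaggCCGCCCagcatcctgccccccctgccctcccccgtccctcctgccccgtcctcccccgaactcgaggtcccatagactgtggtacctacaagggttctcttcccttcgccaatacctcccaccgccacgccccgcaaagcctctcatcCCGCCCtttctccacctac
The window of Gabrg1, lower in hippocampus, holds no GC box, 1 CpG and 35.6% G or C. That of Gabra2, higher in hippocampus, holds 1 GC box, 18 CpG and 70.0% G or C. The full window of Gabra4, also higher there, holds 2 GC boxes, 12 CpG and 61.2% G or C. The window of Gabrb1, higher there as well, holds 0 GC boxes, 18 CpG and 64.4% G or C. Over 32851 windows of 250 bases before annotated starts, 32.7% held a GC box and the median content of G or C was 52.4%. A match is a description of the letters only.

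The other genes of these pathways, from lists chosen with earlier results of these data known, were compared in the same test of hippocampus against cortex, beside 24.6% of all genes higher and 10.8% lower, or 28.5% and 15.2% without cortex SH replicate 3. Of 32 auxiliary and anchoring genes of glutamate receptors, 6 were higher and 6 lower, and 6 and 17 without that library. Cbln2, a secreted ligand that links Grid receptors to neurexins, was lower by -1.504 ± 0.10 (SE; limma, adjusted p = 8.97e-07), from 9.97 ± 1.45 to 2.85 ± 0.368 FPKM (SD, n = 6 each). Cacng3, an AMPA receptor auxiliary subunit, was lower by -1.23 ± 0.17 (SE; limma, adjusted p = 0.000191), and Shisa6, another, was higher by 1.31 ± 0.18 (SE; limma, adjusted p = 0.000219). With that library left out these differences were -1.51, -1.21 and 1.13. Of 11 genes of glutamate release and uptake, 4 were higher and 3 lower, or 4 and 4 without that library. The glial transporters Slc1a2 and Slc1a3 were higher by 1.18 ± 0.18 and 0.86 ± 0.15, and the neuronal transporter Slc1a6 was lower by -1.16 ± 0.11 (SE; limma, adjusted p = 0.000336, 0.00115 and 1.47e-05), or by 1.004, 0.75 and -1.13 without it. Slc1a3 also belongs to the radial glia markers.

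On the inhibitory side, none of 9 genes of GABA and glycine synthesis, release and uptake was higher and 6 were lower, and all 9 were lower without cortex SH replicate 3. The vesicular transporter Slc32a1 was lower by -1.38 ± 0.13, and the GABA-making enzymes Gad2 and Gad1 by -0.96 ± 0.12 and -1.01 ± 0.14 (SE; limma, adjusted p = 1.44e-05, 8.47e-05 and 0.000237), or by -1.42, -1.04 and -1.09 without that library. Of these, Gad1 and Gad2 also belong to the interneuron markers. Of 16 anchoring and auxiliary genes of GABA and glycine receptors, 2 were higher and 2 lower, and 2 and 6 without it. Kctd8, an auxiliary subunit of GABA-B receptors, by -1.08 ± 0.10, Lhfpl4, which anchors GABA-A receptors at synapses, by -0.58 ± 0.10, and Mdga1 by 0.64 ± 0.12 (SE; limma, adjusted p = 8.09e-06, 0.00113 and 0.00128) had the smallest p-values, with differences of -1.13, -0.63 and 0.54 without it. Of 5 chloride cotransporters, 2 were higher and 1 lower, or 3 and 1 without it. Slc12a5, the chloride exporter of mature neurons, was lower by -1.45 ± 0.15, from 20.7 ± 4.74 to 6.85 ± 1.18 FPKM (SD, n = 6 each; limma, adjusted p = 2.90e-05), while the broadly expressed Slc12a4 and Slc12a7 were higher by 0.94 ± 0.16 and 0.62 ± 0.13 (SE; limma, adjusted p = 0.000935 and 0.00302). Without cortex SH replicate 3 these differences were -1.58, 0.96 and 0.58.

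The cortex comparison asked which subunits differed between the EE and SH groups. No subunit passed. Of 38 subunits tested over 5 EE and 5 SH libraries, 0 had an adjusted p of 0.05 or less (limma, replicates 1 to 3 and 4 to 5 entered as separate sets). Of 12519 genes 1 did, or 0.00799%. Before adjustment, 1 subunit and 934 genes had a p under 0.05, and a read-based fit by limma-voom called 0 subunits too, with 5 under 0.05 before adjustment. In direction, 36 of the 38 differences were positive, with a median of 0.19 against -0.02 over all genes. Without cortex SH replicate 3, 28 were positive and 10 negative, the median was 0.06, and 0 subunits passed against 0.0239% of genes, all lower. Within replicates 1 to 3 the median was 0.38, and within replicates 4 and 5 it was -0.065, with 0 subunits passing in either set; 436 genes, 3.47% of those tested, passed in replicates 4 and 5, 1.68% higher and 1.79% lower.

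**Figure D5:**
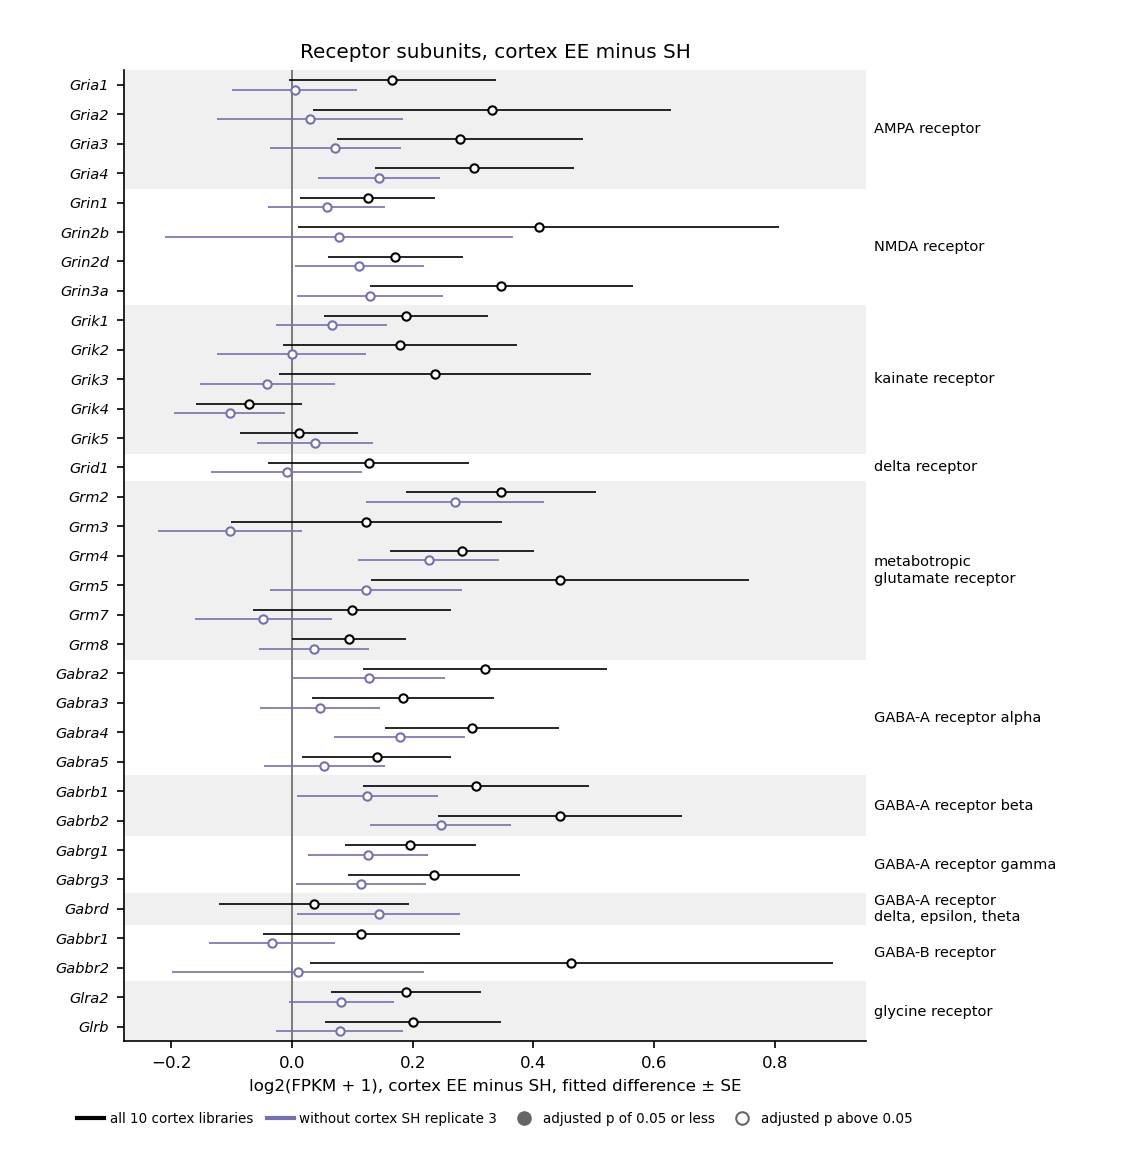
Fitted difference in log2(FPKM + 1), cortex EE minus SH, with its SE, for 33 of the subunits tested, in black with all 10 cortex libraries and in violet without cortex SH replicate 3. All points are open, since none passed an adjusted p of 0.05, and the violet points lie nearer to 0 for most subunits.

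Summed by class, the EE means of cortex were above the SH means by less than the SD of the SH libraries for AMPA, NMDA, GABA-B and glycine receptor genes with all libraries. The AMPA receptor genes of the EE libraries summed to 95.7 ± 11.6 FPKM, those of the SH libraries to 83.4 ± 23.8 FPKM (SD, n = 5 per group) and to 93.4 ± 9.46 FPKM without SH replicate 3 (SD, n = 4). The GABA-B genes summed to 135.2 ± 17.9, 123.8 ± 29.7 and 136.6 ± 9.93 FPKM in the same order, and Glra2 and Glrb to 45.3 ± 4.87, 39.7 ± 6.66 and 42.2 ± 4.07 FPKM. The 4 NMDA receptor genes listed in every library summed to 53.6 ± 5.31, 46.5 ± 7.23 and 49.7 ± 1.48 FPKM, so that without SH replicate 3 their gap was larger than the SD of the SH libraries. Gabrd and Gabrq together summed to 3.17, 2.97 and 2.76 FPKM, farther apart without that library. These sums were not tested.

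The subunits with the smallest p-values in the positive direction were Grm4, Grm2, Gabrb2 and Gabra4. Grm4, a presynaptic inhibitory receptor, had 1.83, 2.30, 2.80, 2.76 and 1.84 FPKM in EE replicates 1 to 5 and 1.73, 2.02, 1.34, 1.76 and 1.68 FPKM in SH replicates 1 to 5. The ranges overlapped at SH replicate 2, and the log2 difference was 0.28 ± 0.12 (SE; limma, adjusted p = 0.631), or 0.23 without SH replicate 3. Gabrb2 had 19.0, 18.4, 15.9, 14.4 and 16.3 FPKM in EE and 14.8, 13.2, 6.79, 11.2 and 16.6 FPKM in SH, a difference of 0.44 ± 0.20 (SE; limma, adjusted p = 0.657) that was 0.25 ± 0.12 without SH replicate 3. For Grm2 the difference was 0.35 ± 0.16 (SE; limma, adjusted p = 0.657) and for Gabra4 0.30 ± 0.14 (SE; limma, adjusted p = 0.677), and 0.27 and 0.18 without that library.

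Of the 2 negative differences, that of Grik4 was -0.07 ± 0.09 (SE; limma, adjusted p = 0.858), and -0.10 without SH replicate 3. As shares of their families, 0 of 28 compared in cortex passed the correction, with a smallest adjusted p of 0.222 (exact permutation test, two-sided). With all libraries 0 subunits had EE and SH ranges apart, against 0.607% of genes higher and 2.02% lower. Without SH replicate 3 it was 1 subunit, lower in EE, against 0.759% of genes higher and 5.06% lower.

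The hippocampal comparison of EE with SH, 3 libraries against 3, also called no subunit. Of 37 subunits tested 0 passed (limma), as did 0% of 13324 genes, and before adjustment 0 subunits and 503 genes had a p under 0.05; limma-voom called 0 as well. The differences were positive for 21 subunits and negative for 16, with a median of 0.02 against -0.01 over all genes. Without SH replicate 2 that median was 0.17, and without SH replicate 1 it was -0.07, so its sign depended on single libraries. The libraries rich in choroid plexus markers were EE replicates 1 and 2 and SH replicate 1, so choroid content was not balanced between the groups. Those markers were higher in EE for 6 of 6 genes on the log scale, with a median of 0.98, and 0 passed. Those listed in every library summed to 5030.9, 10381 and 35.6 FPKM in EE and to 16787, 38.7 and 146.3 FPKM in SH. The highest sum was thus in an SH library. The part of choroid plexus in this comparison was not tested. Gabrd had 1.35, 1.12 and 1.83 FPKM in EE and 0.817, 0.888 and 1.22 FPKM in SH, a difference of 0.30 ± 0.17 (SE; limma, adjusted p = 0.9996). The next in that direction were Glra2 with 0.25, Grik5 with 0.15 and Gria3 with 0.14. In the other direction Grin2b had a difference of -0.28 ± 0.22 (SE; limma, adjusted p = 0.9996), with 1.93, 3.49 and 4.32 FPKM in EE and 3.94, 4.02 and 4.02 FPKM in SH. Gabrb1 had -0.15 and Gabrg1 -0.17. No subunit had EE and SH ranges apart, against 2.59% of genes higher and 7.33% lower. No share within a family differed in hippocampus, where 3 against 3 libraries cannot give an exact p under 0.1.

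Whether the EE effect differed between the tissues was tested as an interaction over replicates 1 to 3. No subunit of 37 and 0% of 13138 genes passed (limma), and 4 subunits had an unadjusted p under 0.05. The smallest p was that of Grin2b, with a difference between effects, hippocampus minus cortex, of -1.41 ± 0.47 (SE; limma, adjusted p = 0.494), and of -0.98 ± 0.33 without cortex SH replicate 3 (SE; limma, adjusted p = 0.738). Its levels were 3.18, 5.27 and 2.90 FPKM in cortex EE and 1.82, 1.92 and 0.180 FPKM in cortex SH, and 1.93, 3.49 and 4.32 FPKM in hippocampus EE and 3.94, 4.02 and 4.02 FPKM in hippocampus SH. Cortex replicates 4 and 5, outside this test, had 0.682 and 2.34 FPKM of Grin2b in EE and 3.61 and 2.10 FPKM in SH. The order of cortex EE above SH was thus not repeated there. Gabrg3 followed with -0.50 ± 0.22 and Gabrd with 0.54 ± 0.24 (SE; limma, adjusted p = 0.494 for both), or -0.33 and 0.41 without that library. The median over the subunits was -0.36, with 34 negative and 3 positive, and -0.11 without cortex SH replicate 3. In the pathway lists, 0 genes passed between EE and SH in either tissue.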

How the data were processed

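Per the labels' protocols, Trizol was used for RNA and a NEBNext Ultra kit for the libraries. The authors deposited 1 table of gene symbols and FPKM values per library. The build mm10 and the tools StringTie 1.3.4d, HISAT2 2.0.4, cutadapt 1.9, DESeq2 and edgeR appear, without roles, in the submitters' processing notes; the annotation, the strand setting and the rule for listing a gene are not given in the sources used here. Members and gene lists were chosen with earlier results of these data known.

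From the deposited FPKM, two-sided tests were made in limma 3.58.1 (R 4.3.3; eBayes with a mean-variance trend) on log2(FPKM + 1), over genes listed in every library compared with a mean FPKM of at least 1 and without further scaling. Such a fold change understates the change of low genes. Benjamini-Hochberg adjustment ran over all genes tested, with a threshold of 0.05. Whole reads were recovered for 99.6 to 100.0% of genes per set of libraries, within 0.003 reads, and show that gene lengths were alike between the sets for every subunit. Shares used scipy 1.17.1. Dates in place of symbols (22) and 1 duplicated symbol were left out. GENCODE M21 gave positions and transcript lengths for 93.3% of symbols.

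On simulated data with 67 genes shifted by log2 1, the test called 86.6% in cortex (12519 genes), 56.7% in hippocampus (13324) and 89.6% between tissues (13138); for a shift of 0.5 it called 25.4%, 7.46% and 50.7%.

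Subunits were named by a rule: every called one, the 3 nearest to 0 between tissues, the 4 smallest p-values in each direction for EE against SH, the 3 smallest in the interaction and in each pathway list, and the highest and lowest level of each family. Some subunits are counted in the totals but not reported by name or drawn here. Other subunits named with values were picked after these were seen. Alternatives were other scalings, pseudocounts of 0.1, no filter or a mean FPKM of at least 5, removal of each library's trend on length and GC content, a robust fit, the replicate number as a block, subsets of libraries and leaving out each library. Added after seeing the data were limma-voom on the recovered reads and the analyses of hippocampus against cortex without cortex SH replicate 3 and hippocampus SH replicate 2 together, or without the 3 choroid-rich hippocampal libraries.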

Additional observations from a re-analysis of the deposited data

Results flagged for a closer look

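Dixon's 95% critical value for groups of 5 libraries is 0.71. In 8 of 78 sets of values, or 10.3%, the lowest library lay farther from the rest than that value allows. For independent sets chance would give about 5%, but these sets come from the same libraries and are not independent. All 8 lay in cortex SH replicate 3 or cortex EE replicate 5. In cortex SH replicate 3 these were Gabrb1 at 1.15 FPKM (others 2.78 to 3.23), Gabrg3 at 1.19 FPKM (others 2.08 to 2.41), Grik1 at 3.601 FPKM (others 5.55 to 6.13), Grm3 at 4.51 FPKM (others 9.41 to 11.3) and Grm7 at 1.82 FPKM (others 3.34 to 3.96). In cortex EE replicate 5 they were Gabbr1 at 91.8 FPKM (others 115.8 to 121.3), Gabbr2 at 11.7 FPKM (others 22.5 to 26.6) and Gabrg3 at 1.83 FPKM (others 2.68 to 2.77). Both libraries hold the lowest summed level of the 39 subunits in their group, 383.8 and 560.2 FPKM.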

How the results depend on the processing

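The counts of subunits called for EE against SH were 0 in every alternative run for cortex, hippocampus and the interaction. Of all genes in cortex, 1 was called, and 8 with the length and GC trend removed, 3 without SH replicate 3, 0 without a term for the set, 0 in replicates 1 to 3 and 436 in replicates 4 and 5, where the subunit median was -0.065. The interaction median, -0.36, was -0.46 to -0.11 over analyses that left out 1 library. Between tissues 20 subunits were called, and 12 at the same summed FPKM per library and 12 of 24 tested at a mean FPKM of at least 5 (2734 genes). In SH libraries only, with cortex SH replicate 3 among them, 2 were called (517 genes). Without the 3 choroid-rich libraries 9 were called (2131 genes), and 30 without cortex SH replicate 3 and hippocampus SH replicate 2 (6413 genes). With the length and GC trend removed, 27 of 37 subunits were called between tissues, 4 higher and 23 lower. Of all genes 43.4% were called in that fit, 21.8% higher and 21.6% lower. In cortex the same fit left 35 of 38 differences between EE and SH positive, with a subunit median of 0.16. Leaving out 1 library gave 17 to 29 subunits between tissues. Over all alternatives each of the 20 kept its direction. With the replicate number as a block, 19 subunits were called between tissues, and 0 for EE against SH in either tissue. The labels do not say whether the numbers pair the samples. Between EE and SH, same-numbered deviations correlated at 0.089 to 0.41 in cortex and -0.56 to 0.36 in hippocampus. Between cortex and hippocampus they correlated at -0.029 to 0.27. Deviations were taken from the mean of 2 or 3 libraries and sum to 0 within each set, so these values cannot settle it. For low subunits such as Gabre and Glra3 counting error limits what can be seen, and shifts of 0.25 were not called in simulated data.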
